A study of Mus musculus with 6 samples.

Results

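The nuclear genes for the subunits of the mitochondrial respiratory chain and of the ATP synthase were followed in cochlear explants of neonatal mice with and without neomycin damage. They were chosen by symbol: Nduf genes of the a, b, c, s and v series for complex I without the Ndufaf assembly factors, Sdha to Sdhd for complex II, the Uqcr genes and Cyc1 for complex III, the Cox4 to Cox8 genes for complex IV and the Atp5 genes for complex V, with pseudogenes dropped. The rule found 86 of the 24421 symbols counted, 38 of complex I, 4 of complex II, 9 of complex III, 18 of complex IV and 17 of complex V. The study asked how the damaged neonatal cochlea responds after loss of hair cells (HCs), the sensory cells of hearing. Explants came from wild-type mice at postnatal day 2 and stayed 12 h in culture before neomycin, an aminoglycoside antibiotic that is toxic to HCs, was given at 1 mM for 6 h. They were then kept for 5 days with the thymidine analogue EdU at 10 μM. The control group was read as explants that went through the same culture without neomycin. The protocol text in the labels is the same for all 6 samples, so the labels of the control samples give the treatment only as control. Each group had 3 samples, and each sample was RNA from 6 to 8 cochleae. The strain and sex of the mice were not given for these samples, and the labels do not say whether equal replicate numbers mark explants of the same day or litter.

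Respiratory complexes I and II pass electrons from NADH and succinate to ubiquinone, complex III passes them on to cytochrome c, and complex IV hands them to oxygen. Complexes I, III and IV pump protons as they do so, and complex V, the ATP synthase, uses the returning protons to make ATP. The complexes other than II mix subunits from the nucleus with subunits from mitochondrial DNA. The core subunits, among them those that carry the chemistry, are joined by smaller accessory subunits that hold the complex together. HCs depend heavily on mitochondria, and aminoglycosides are known to harm them in part through these organelles.

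Total counts ran from 50471116 to 66068108 per sample, and the scaling factors of the TMM method from 0.963 to 1.045. The 10 most abundant genes took 6.19% to 6.97% of the counts. The labelled tissue and treatment were checked against 9 HC markers, of which 8 fell. Their summed level was 452 to 590 CPM (reads scaled to a common library size) in the control samples and 66.3 to 91.6 CPM after neomycin, without overlap. In bulk RNA, fewer HCs and less RNA per HC cannot be told apart, and the same holds for each gene described here. Of the 86 genes, 83 had enough counts to be tested. Cox6a2, Cox7b2 and Cox8c were not, with at most 0.288 CPM in any sample.

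After neomycin the respiratory chain and ATP synthase mRNAs were jointly a little higher. In edgeR's quasi-likelihood test with Benjamini-Hochberg adjustment over all 15988 genes tested, 54 of the 83 genes (65.1%) were higher at an adjusted p under 0.05 and 0 were lower, against 12.9% of all genes tested that were higher and 16.1% that were lower. At an unadjusted p under 0.05 the test gave 64 higher and 0 lower, DESeq2 called 61 higher and 0 lower after adjustment, and limma-voom 54 and 0. The changes were small. Their median was 0.33 on the log2 scale, with a range of -0.05 to 0.65, while the median of all genes tested was -0.0041. Ndufc1 and Atp5e alone also passed a fold change of 1.5, a size that 2.24% of all genes tested passed in the upward direction. The fitted change was above 0 in 78 of the 83 genes and below 0 in Ndufs1, Ndufa4l2, Cox4i2, Atp5a1 and Atp5b, none of which passed the test.

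The same difference was seen when the genes were averaged within each sample. Relative to the control mean, the mean log2 level of the tested genes was -0.0931, -0.0362 and 0.129 for controls 1, 2 and 3, and 0.193, 0.332 and 0.385 for neomycin 1, 2 and 3. The groups did not overlap in this mean, but control 3 and neomycin 1 lay close together. Control 3 was the highest control sample in 78 of the 83 genes and neomycin 1 the lowest neomycin sample in 72, so the spread within each group was shared by nearly all of these genes. Gene by gene, all neomycin samples lay above all control samples for 49 genes (59.0%) and below them for 0, against 21.0% and 22.5% of all genes tested. Together the 86 genes took 1.23%, 1.26% and 1.36% of all counts without neomycin and 1.38%, 1.47% and 1.53% with it.

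**Figure D1:**
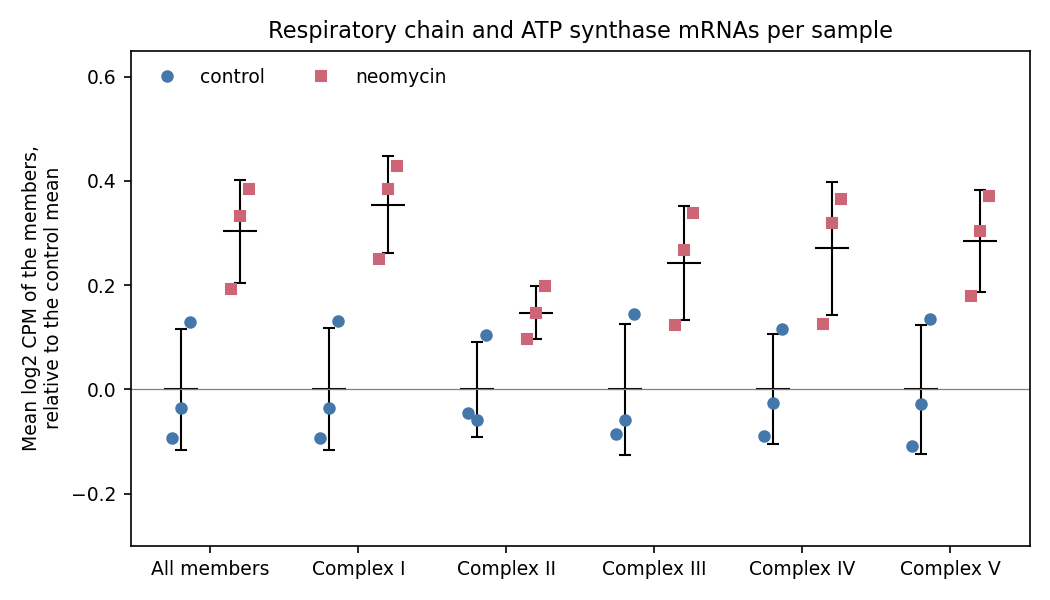
Mean log2 CPM of the tested genes of each complex in each sample, relative to the mean of the control samples (vertical axis), for all 83 genes and for complexes I to V (horizontal axis). Circles are the 3 control samples and squares the 3 neomycin samples in the order 1, 2, 3, and the horizontal marks with bars are means ± SD. The neomycin samples lie above the control samples for all genes together and for complexes I, IV and V, whereas neomycin 1 lies below control 3 in complexes II and III.

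How many genes passed depended on the samples. With control 1, control 2, neomycin 2 or neomycin 3 left out, 32, 29, 30 and 30 genes were higher and 0 were lower. The higher calls over all genes fell as well, from 2058 to between 1007 and 1441 in these fits. Without control 3, 67 genes were higher and 11 passed a fold of 1.5, and without neomycin 1 the numbers were 60 and 6. In all 6 of these fits 28 genes were called, 20 of complex I, 1 of complex III, 3 of complex IV and 4 of complex V, and 76 of the 83 genes kept a log2 fold change above 0.

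Most of these genes are short, and gene length moved with the result. The exonic length, the union of the exons of the annotated transcripts, had a median of 864 bases over the 83 genes and of 3029 bases over all genes tested that had a length. Over all genes of at most 600 bases the median log2 fold change was 0.36, and 30.1% of them were higher, while the 21 subunit genes of that size had a median of 0.45 and 15 were higher. Between 600 and 1000 bases the medians were 0.33 for all genes and 0.32 for the 28 subunit genes, and 42.9% and 23 were higher. Between 1000 and 1500 bases the medians were 0.25 and 0.34, with 35.0% of all genes and 9 of 13 subunit genes higher. Between 1500 and 2500 bases both medians were 0.12, with 17.2% of all genes and 6 of 16 subunit genes higher. In the longest range 4.93% of all genes and 1 subunit gene were higher. Above 2500 bases all genes had a median of -0.11, and the 5 subunit genes, Ndufs1, Sdha, Sdhc, Ndufab1 and Atp5g1, had one of 0.22. Across the 83 genes the log2 fold change and the log2 exonic length had Pearson's r = -0.564 and Spearman's rho = -0.559, as a description of genes that share their libraries.

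**Figure D2:**
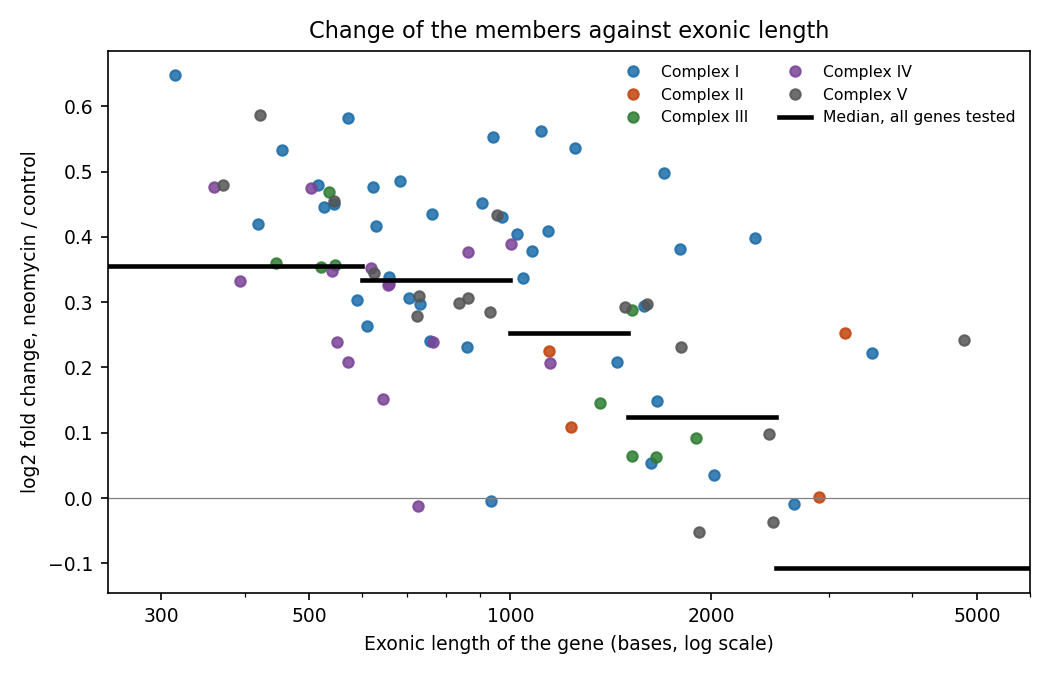
Log2 fold change of neomycin over control (vertical axis) against exonic length in bases on a log axis (horizontal axis) for the 83 tested genes, coloured by complex, with black lines for the median of all genes tested in 5 length ranges. The black lines step down from 0.36 for the shortest genes to -0.11 for those above 2500 bases. The medians of the subunit genes are 0.45, 0.32, 0.34 and 0.12 in the ranges up to 2500 bases and 0.22 above.

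With the trend on exonic length removed from each sample, the median of the 83 genes was -0.01, 9 genes were higher and 3 were lower. In that fit 8.53% of all genes were higher and 11.6% lower. The 9 were Ndufa5, Ndufa13, Ndufab1, Ndufb8, Ndufc1, Ndufs4, Ndufv2, Sdhc and Atp5g1, and the 3 were Cox4i2, Cox5a and Atp5b. Several of these genes have a long annotated transcript beside a short one, so the length was also taken as that of the shortest transcript, a choice made after the values were seen. Then the median was 0.04, 10 genes were higher and 1 was lower, against 8.46% and 12.1% of all genes. Ndufa5, Ndufa13, Ndufab1, Ndufc1, Ndufs4 and Sdhc were higher and Cox4i2 was lower in both fits. With the trend on GC content removed instead, 55 genes were higher and 0 were lower, and the median was 0.32.

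**Figure D3:**
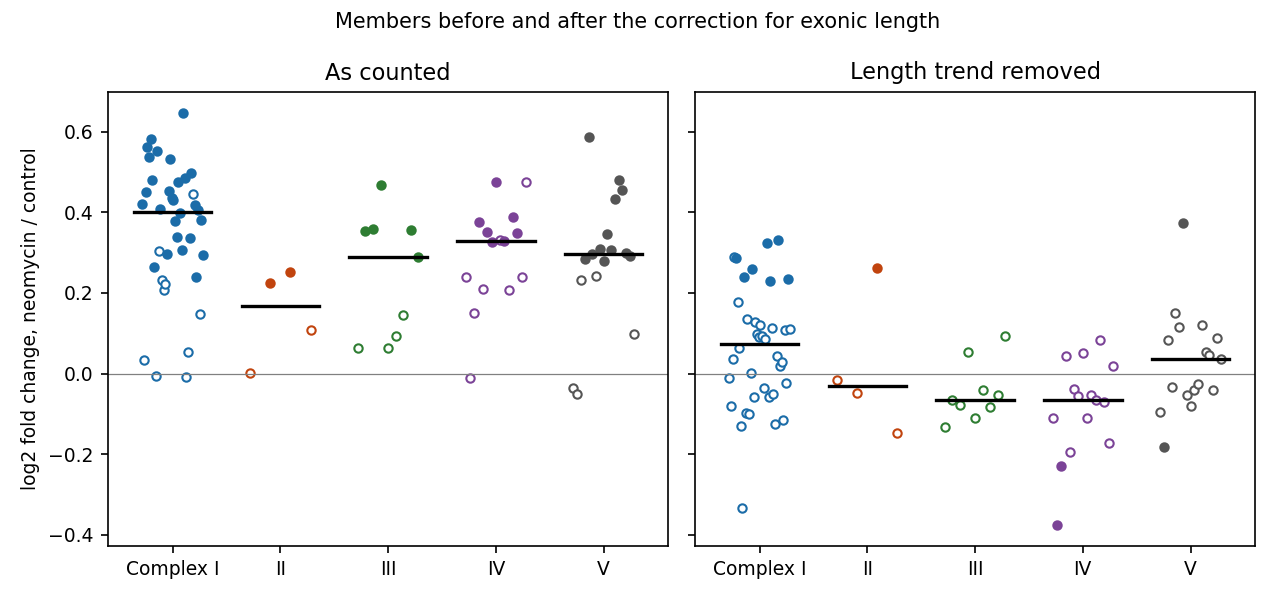
Log2 fold change of each tested gene by complex (horizontal axis) as counted (left) and with the trend on exonic length removed (right), on a shared vertical axis. Filled points had an adjusted p under 0.05 and black lines are medians per complex, which were 0.17 to 0.40 as counted and -0.06 to 0.07 after the correction.

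Complex I had the largest median log2 fold change of the 5 complexes. Its 38 genes were all tested, 28 were higher, and their median log2 fold change was 0.40. They include Ndufa4 and Ndufa4l2, which the symbol rule places here, although the Ndufa4 protein is now known as a subunit of complex IV, and neither is counted below as an accessory or core subunit. With the length trend removed the median was 0.07, and 7 were higher and 0 lower. Of the 29 accessory subunits 23 were higher with a median of 0.43, and of the 7 core subunits 4 were higher with a median of 0.24. The difference between these kinds of subunit was not tested. The accessory genes had a median length of 763 bases and the core genes of 1623 bases, and with the length trend removed the medians were 0.09 and -0.02.

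Ndufc1, a very small accessory subunit of the membrane arm with an exonic length of 315 bases, changed most. It had 28.9, 31.4 and 32.3 CPM in control and 45.1, 46.6 and 53.3 CPM after neomycin, so all neomycin samples lay well above the controls. The log2 fold change was 0.65 (SE 0.0853, adjusted p = 0.000277 by edgeR), and 0.23 with the length trend removed (adjusted p = 0.0371 by edgeR). Ndufa2, an accessory subunit of the peripheral arm, had 74.0, 73.9 and 86.5 CPM in control and 107, 116 and 128 CPM after neomycin, a log2 fold change of 0.58 (SE 0.0885). Ndufa12, another subunit of that arm, had 45.8, 45.7 and 53.6 CPM against 76.2, 76.5 and 61.5 CPM. Its log2 fold change was 0.56 (SE 0.0968), and here neomycin 3 was the lowest of its group, unlike in most of the other genes.

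The accessory subunits called higher under both length corrections had various known roles. Such calls were near the general share, with 9 and 10 of the 83 genes against 8.53% and 8.46% of all genes. Ndufs4, a subunit near the NADH end whose loss causes severe complex I deficiency in mice, had 83.2, 84.7 and 97.8 CPM in control and 113, 125 and 138 CPM after neomycin. The log2 fold change was 0.50 as counted and 0.33 with the length trend removed (adjusted p = 0.00352 by edgeR). Ndufa13, also known as GRIM-19, had 107, 115 and 127 CPM against 153, 174 and 179 CPM, with log2 fold changes of 0.54 and 0.29 before and after the correction. Ndufa5 had 42.8, 45.5 and 52.2 CPM against 64.8, 69.0 and 72.4 CPM, with log2 fold changes of 0.55 and 0.24. Ndufab1, the mitochondrial acyl carrier protein, differed less, with 55.9, 57.1 and 59.5 CPM against 59.7, 71.5 and 70.2 CPM. Its adjusted p was 0.0540 as counted and 0.0288 with the length trend removed, both by edgeR. The 4 genes had no overlap between the groups, though for Ndufab1 control 3 and neomycin 1 were nearly equal.

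Among the core subunits, some of which bind NADH or carry the iron-sulfur clusters, the levels split. Ndufs1, the largest of them, had 92.0, 94.7 and 93.6 CPM in control and 94.8, 90.7 and 93.1 CPM after neomycin. Ndufv1, which holds the NADH site, had 90.7, 91.3 and 104 CPM against 102, 103 and 112 CPM. The groups overlapped in both genes, and their adjusted p-values were 0.932 and 0.167 in edgeR's test. Ndufs3, Ndufs7, Ndufs8 and Ndufv2 were higher without overlap, with log2 fold changes of 0.34, 0.24, 0.40 and 0.38. Ndufs8, a ferredoxin-like subunit, had 92.7, 97.5 and 115 CPM against 126, 140 and 139 CPM. Their exonic lengths were 758 to 1794 bases, and those of Ndufs1 and Ndufv1 were 2661 and 1661 bases. Ndufs5, an accessory subunit, was listed at no more than 2.44 CPM in any sample and did not pass the test (adjusted p = 0.155 by edgeR). It has an annotated pseudogene that matches its transcript closely, and how reads that fit both were counted was not given.

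Complex II, the smallest complex and the only one with all its subunits from the nucleus, had the smallest median log2 fold change at 0.17, with 2 of 4 genes higher. Sdha, the flavoprotein that oxidizes succinate, had 220, 210 and 224 CPM in control and 220, 217 and 218 CPM after neomycin, and it did not pass the test (adjusted p = 0.986 by edgeR). Sdhb, its iron-sulfur partner, had 108, 107 and 122 CPM against 126, 131 and 136 CPM, a log2 fold change of 0.23 (SE 0.0758, adjusted p = 0.0421 by edgeR). Sdhc, a membrane anchor, had 124, 118 and 138 CPM against 150, 148 and 155 CPM, a log2 fold change of 0.25 (SE 0.0758, adjusted p = 0.0261 by edgeR). For both genes all neomycin samples lay above all controls. Sdhd, the other anchor, had 135, 146 and 160 CPM against 142, 162 and 172 CPM, with overlap. With the length trend removed the log2 fold change was -0.05 for Sdhb and 0.26 for Sdhc, which has an exonic length of 3171 bases. Each of the 2 calls held in only 2 of the 6 fits that left out a sample.

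In complex III the calls fell on the accessory subunits. The 5 accessory genes were all higher, with a median log2 fold change of 0.36 and a median length of 535 bases, and of the 4 core genes 0 passed the test in either direction, with a median of 0.08 and a median length of 1586 bases. At an unadjusted p under 0.05 the core genes also gave 0, and DESeq2 and limma-voom called 0. Uqcrb, a subunit at the ubiquinone site, changed most, with 109, 111 and 129 CPM in control and 145, 167 and 171 CPM after neomycin (log2 fold change 0.47, SE 0.0885, adjusted p = 0.00258 by edgeR). Uqcrh, the hinge protein between cytochromes c1 and c, had 342, 355 and 440 CPM against 416, 513 and 527 CPM, so neomycin 1 fell below control 3. Uqcr11 had 113, 113 and 134 CPM against 137, 153 and 173 CPM, without overlap. Among the core genes, Cyc1, cytochrome c1 itself, had 134, 136 and 146 CPM against 138, 143 and 155 CPM, and Uqcrc1 had 161, 151 and 171 CPM against 172, 161 and 171 CPM. Uqcrc2 and Uqcrfs1, the Rieske iron-sulfur protein, had log2 fold changes of 0.09 and 0.15. The groups overlapped in all 4 core genes. The difference between core and accessory genes was not tested. With the length trend removed, the median was -0.05 for the accessory genes and -0.10 for the core genes, and 0 genes of the complex passed in either direction.

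Complex IV takes its catalytic subunits from mitochondrial DNA, and its nuclear genes code for the parts around them, some as pairs of a ubiquitous and a tissue isoform. Of the 15 genes tested 7 were higher, with a median log2 fold change of 0.33. Cox6c had 155, 177 and 189 CPM in control and 220, 242 and 261 CPM after neomycin, a log2 fold change of 0.47 (SE 0.0916, adjusted p = 0.00294 by edgeR). Cox7b had 132, 126 and 150 CPM against 158, 184 and 192 CPM. Cox5b, a zinc-binding subunit, had 105, 107 and 115 CPM against 131, 140 and 153 CPM. These 3 genes did not overlap between the groups, and their calls held whichever sample was left out. Cox4i1, the main regulatory subunit, had 365, 370 and 440 CPM against 438, 457 and 492 CPM, with neomycin 1 just below control 3 (adjusted p = 0.0675 by edgeR). Cox5a had 81.8, 90.0 and 99.7 CPM against 95.4, 96.8 and 109 CPM and did not pass as counted (log2 fold change 0.15). With the length trend removed its value was -0.23 (adjusted p = 0.0163 by edgeR), and 0 genes of the complex were higher and 2 lower, Cox4i2 being the other.

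The genes of complex V were read by part of the enzyme. Of its 17 genes 12 were higher, with a median log2 fold change of 0.30. The large subunits of the catalytic head did not pass the test in either direction as counted. Atp5b, the beta subunit that makes ATP, had 1013, 1011 and 1081 CPM in control and 975, 1004 and 1017 CPM after neomycin (log2 fold change -0.05, adjusted p = 0.668 by edgeR). With the length trend removed its value was -0.18 (adjusted p = 0.0419 by edgeR). With the shortest transcript as the length it was -0.14 (adjusted p = 0.130 by edgeR). Atp5a1, the alpha subunit, had 867, 862 and 914 CPM against 864, 858 and 854 CPM. Both genes overlapped between the groups. Atp5e, the small epsilon subunit of the central stalk, had 135, 134 and 159 CPM against 198, 210 and 234 CPM, well apart. Its log2 fold change was 0.59 (SE 0.0893, adjusted p = 0.000716 by edgeR), and 0.15 with the length trend removed (adjusted p = 0.111 by edgeR). With the shortest transcript as the length it was 0.24 and passed (adjusted p = 0.0157 by edgeR). Atp5d, the delta subunit, was also higher at 0.29, and Atp5c1, the gamma subunit, did not pass at 0.23.

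The 4 genes of the peripheral stalk, which holds the head still, were all higher by 0.30 to 0.35. Atp5h had 207, 231 and 265 CPM in control and 267, 305 and 321 CPM after neomycin, and Atp5f1 had 257, 282 and 303 CPM against 321, 353 and 358 CPM. Neither gene overlapped, but neomycin 1 came close to control 3 in Atp5h. The 3 genes of the small membrane subunits were higher by more, with a median of 0.46, a difference that was not tested. Their median length was 544 bases and that of the stalk genes 851 bases. With the length trend removed the medians were 0.05 and -0.03, and 0 genes of either part were called. Atp5l had 155, 175 and 199 CPM against 216, 247 and 263 CPM, and Atp5k had 43.8, 47.1 and 55.9 CPM against 63.0, 71.2 and 70.4 CPM. The calls of Atp5l, Atp5k and Atp5j2 held whichever sample was left out, and those of the peripheral stalk did not. Of the genes for the c-ring, the rotor through which protons pass, Atp5g2 and Atp5g3 were higher by 0.31 and 0.28. Atp5g1 missed the threshold as counted (0.24, adjusted p = 0.0565 by edgeR). It passed at 0.37 with the trend on its exonic length of 4778 bases removed, and not with its shortest transcript of 596 bases, where the value was -0.06. Atp5s and Atp5sl match the symbol rule but name no subunit of the enzyme, and their log2 fold changes were 0.29 and 0.10.

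**Figure D4:**
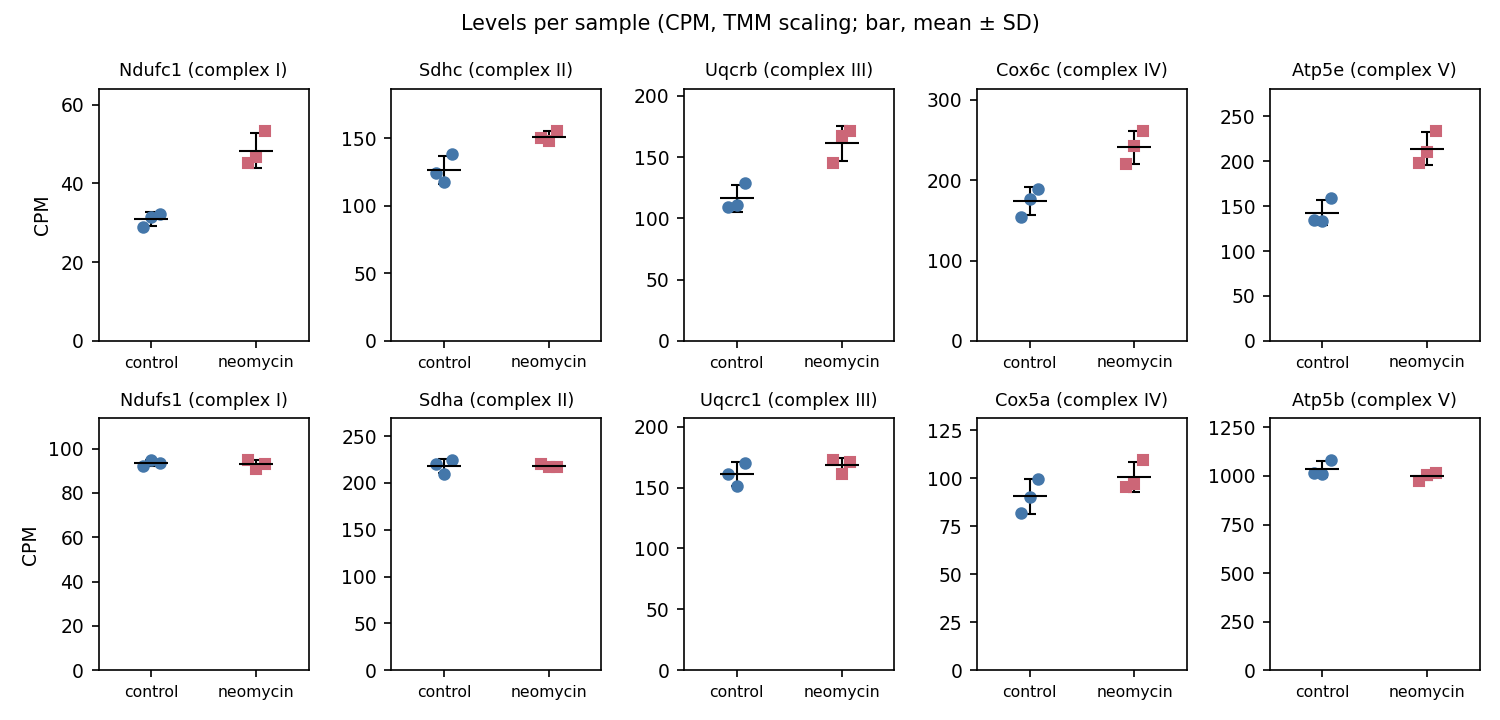
CPM in each sample of the gene with the largest called log2 fold change of each complex (upper row) and of a long or little changed gene of the same complex (lower row), with control as circles and neomycin as squares in the order 1, 2, 3 and mean ± SD as marks with bars. The groups are apart for Ndufc1, Sdhc, Uqcrb, Cox6c and Atp5e and overlap for Ndufs1, Sdha, Uqcrc1, Cox5a and Atp5b. The genes of the lower row were chosen after their values were seen.

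**Figure D5:**
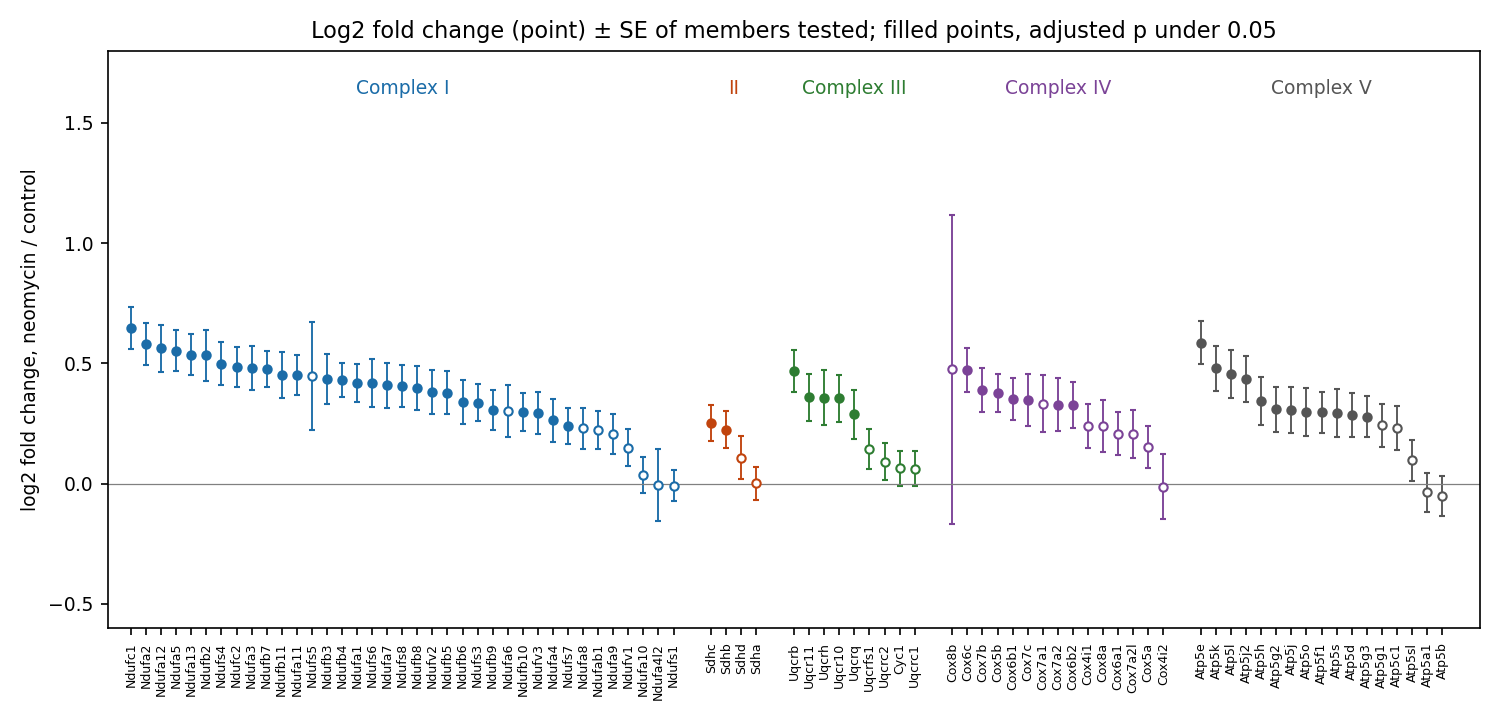
Log2 fold change of neomycin over control with its SE for the tested genes named under the horizontal axis, sorted within complexes I to V, with filled points for an adjusted p under 0.05. Values run from 0.65 for Ndufc1 to -0.05 for Atp5b, and Cox8b has the widest error because it was listed at no more than 0.407 CPM in any sample.

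Levels per length were compared in the control samples as CPM per kilobase of the shortest transcript. Uqcrh led with 693, followed by Cox8a with 552, Atp5b with 540 and Cox4i1 with 526. Among the core genes of complex I the values were 35.1 for Ndufs1 and 138 for Ndufv2. Genes of high level were found both among those that were higher, such as Uqcrh, and among those that did not pass, such as Atp5b. The log2 fold change and the log2 mean CPM had Pearson's r = -0.294 and Spearman's rho = -0.292 over the 83 genes, again as a description.

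No tissue isoform passed the test for a changed ratio to its partner. Cox4i2, an isoform tied to low oxygen, stood to Cox4i1 at 0.199, 0.220 and 0.223 in the control samples and at 0.148, 0.210 and 0.181 after neomycin. The mean log2 ratio differed by -0.26, an exact two-sided permutation test over the 6 samples gave p = 0.2, and neomycin 2 lay within the control range. Without neomycin 1 the difference was -0.133 and without neomycin 2 -0.383. Ndufa4l2, the relative of Ndufa4 that hypoxia induces in many tissues, stood to Ndufa4 at 0.623, 0.579 and 0.624 against 0.386, 0.608 and 0.512, again with p = 0.2 by the exact permutation test and with overlap. The mean log2 ratio differed by -0.301, by -0.124 without neomycin 1 and by -0.451 without neomycin 2. Neomycin 1 was the lowest sample in both ratios. In that sample Ndufa4l2 was at 98.1 CPM and in neomycin 2 and 3 at 165 and 158 CPM, while the controls were at 132, 136 and 154 CPM. Over the 8 pairs compared, the adjusted p of the exact permutation tests was 0.686 to 0.8, and a design of 3 against 3 cannot go below 0.1. The muscle isoform Cox7a1 was at 21.1 to 24.6 CPM in control and 23.6 to 33.3 CPM after neomycin, and its ratio to Cox7a2 was 0.165 to 0.182 and 0.170 to 0.181. The testis isoform Cox6b2 was higher at 0.33, like its partner Cox6b1 at 0.35. Cox8b, the other muscle isoform tested, had a level of no more than 0.407 CPM in any sample. Its log2 fold change of 0.48 did not pass (SE 0.642, adjusted p = 0.612 by edgeR). Cox4i2 and Ndufa4l2 themselves had log2 fold changes of -0.012 and -0.0049. Of the pericyte markers, 4 of the 6 tested fell, and their summed level was 170 to 211 CPM in control and 128 to 141 CPM after neomycin. The part of pericytes in these ratios was not tested.

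The counts do not say how strand and multiply matching reads were treated, so copies and overlapping genes were counted from the annotation. Of the 86 genes, 19 had an annotated pseudogene transcript of close sequence, 24 shared exon bases with a gene on the opposite strand and 4 with a gene on the same strand. Atp5j was among the 24, and its partner is Gabpa, the gene of the DNA-binding subunit of the transcription factor GABP. Among the 47 tested genes with none of these, 29 were higher.

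The promoters of these genes were looked at because the genes moved together and because nuclear respiratory factor 1 (NRF1), the ETS-type factor GABP and YY1 are known regulators of respiratory genes. RefSeq start sites on the GRCm38.p6 build were matched for 70 of the 86 genes. Atp5a1, Cox4i1, Cox4i2, Cox6a2, Cox6c, Cox8c, Cyc1, Ndufa2, Ndufa4l2, Ndufb9, Ndufs1, Sdhc, Uqcrb, Uqcrc2 and Uqcrq were among those not matched. The windows ran from 250 bases before the start to 50 bases after it and were searched on both strands. The palindromic core of the NRF1 motif, CGCATGCG, stood in 9 of the 70 genes (12.9%) and in 2.07% of all 27025 genes with a window. The ETS letters CCGGAAG stood in 16 (22.9%) and 9.93%, and the YY1 letters AAGATGGC in 11 (15.7%) and 3.19%. The ETS and YY1 letters can share AAG and the YY1 and NRF1 letters an end base, but matches of different motifs overlapped in 0 of the 70 genes. The windows of the 70 genes were also richer in G and C than those of all genes, with a median of 57.5% against 52.7%. The number of CG steps, a C followed by a G, had a median of 19 in their windows and 7 in all windows. The NRF1 and ETS letters contain CG themselves, and the part of this difference in the shares above was not tested. Stretches of 80 bases before the start are shown 5′ to 3′ on the gene's strand, 3 of them with NRF1 letters, 1 with both NRF1 and ETS letters, and 1 from Atp5e, the gene of complex V that changed most. Capitals mark the matches on either strand.
Ndufa11: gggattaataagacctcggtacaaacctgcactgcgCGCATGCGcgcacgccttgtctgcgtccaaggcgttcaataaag
Atp5g2: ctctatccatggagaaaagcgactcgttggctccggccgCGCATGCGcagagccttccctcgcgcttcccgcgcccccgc
Atp5k: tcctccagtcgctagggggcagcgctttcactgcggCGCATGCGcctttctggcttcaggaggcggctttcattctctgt
Atp5l: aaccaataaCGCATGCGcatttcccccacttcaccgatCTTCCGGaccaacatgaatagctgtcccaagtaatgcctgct
Atp5e: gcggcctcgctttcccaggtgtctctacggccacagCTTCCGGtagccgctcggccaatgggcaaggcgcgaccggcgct
They lie at chr17:56717667-56717746 (plus strand) for Ndufa11, chr15:102671048-102671127 (minus) for Atp5g2, chr5:108434405-108434484 (minus) for Atp5k, chr9:44920913-44920992 (minus) for Atp5l and chr2:174464160-174464239 (minus) for Atp5e. The 5 genes shown were all called higher as counted, by 0.31 to 0.59, and 0 of them passed with the trend on exonic length removed. With the shortest transcript as the length, only Atp5e of them passed. They do not stand for every gene with the letters: 6 of the 9 genes with NRF1 letters, 13 of the 16 with ETS letters and 9 of the 11 with YY1 letters were higher as counted. With any of the letters 23 of 30 genes were higher and with none of them 25 of 39 tested. Matched letters are a description of the window, and binding was not measured.

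Genes that serve the same complexes were taken from 5 lists, to be read against the 12.9% of all genes tested that were higher and the 16.1% that were lower. Of the assembly factors, which build the complexes but stay out of them, 49 were tested, 18 (36.7%) were higher and 1, Tmem186, was lower, with a median log2 fold change of 0.24. Pet100, a chaperone of complex IV, changed most. It had 28.7, 27.0 and 29.8 CPM in control and 44.7, 45.9 and 47.4 CPM after neomycin, and its log2 fold change was 0.69 as counted and 0.43 with the length trend removed. Of 30 genes of protein import through the outer and inner membranes 11 (36.7%) were higher and 0 lower, with a median of 0.21. Unadjusted, 17 were higher and 0 lower, and DESeq2 and limma-voom called 13 and 12 higher and 0 lower. The electron carriers and nucleotide exchangers gave 5 higher (18.5%) and 2 lower (7.41%) of 27, with a median of 0.08. Cytochrome c, Cycs, had 97.4, 115 and 116 CPM in control and 97.2, 116 and 115 CPM after neomycin. Ucp3, an uncoupling protein, had 2.94, 3.24 and 3.63 CPM against 1.21, 0.475 and 0.614 CPM and fell by 2.10 on the log2 scale (adjusted p = 0.000764 by edgeR), and the mitochondrial creatine kinase Ckmt1 fell by 0.55. The tricarboxylic acid cycle gave 3 higher (16.7%) and 2 lower (11.1%) of 18, shares near those of all genes. Cs, citrate synthase, was among the lower, with 224, 225 and 232 CPM in control and 196, 194 and 191 CPM after neomycin, and Sucla2, a subunit of succinyl-CoA ligase, among the higher at 0.27.

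The regulators of mitochondrial biogenesis moved in shares near those of all genes, 8.33% higher and 16.7% lower. Of 24 tested 2 were higher, Ssbp1 and Tfam, which bind mitochondrial DNA, and 4 were lower, the coactivator gene Crebbp, Pprc1, Gabpb2 and the mitochondrial DNA polymerase Polg, and the median was -0.07. Ppargc1a, the coactivator PGC-1α, had 10.4, 10.8 and 6.94 CPM in control and 7.12, 7.19 and 8.23 CPM after neomycin and did not pass (adjusted p = 0.161 by edgeR). Nrf1 itself had 30.7, 33.1 and 33.8 CPM against 28.5, 28.7 and 27.0 CPM, apart but short of the threshold (adjusted p = 0.0657 by edgeR). With the length trend removed the medians of the 5 lists were 0.04 for assembly factors, 0.01 for import, 0.01 for carriers, -0.07 for the cycle and 0.01 for the regulators, beside -0.01 for the subunits. The subunits that mitochondrial DNA encodes could not be set beside the nuclear ones, since 0 of their symbols were in the table that was analysed.

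Markers of the cell types in the explant were read beside these values. Of 9 markers of supporting cells (SCs), the cells that surround the HCs, 1 was higher and 4 were lower. Their summed level was 2051 to 2471 CPM in control and 2659 to 2852 CPM after neomycin. Most of that sum was S100a1, the 1 called higher, at 1391 to 1804 CPM and 2050 to 2287 CPM. The median log2 fold change of the 9 markers was -0.16. Of 7 mesenchymal markers 2 were higher and 2 lower. Of 6 macrophage markers 2 were higher, with sums of 52.3 to 67.6 CPM and 66.1 to 86.9 CPM that overlap. Of 6 neuronal markers 3 were lower, and of 4 glial markers 1. Of 6 skeletal muscle markers tested 1, Des, was higher, with sums of 25.2 to 28.1 CPM and 32.4 to 35.6 CPM, while Ckm and Myh3 were at or near 0 in every sample. Blood markers summed to at most 0.319 CPM. The part of these shifts in the level of the respiratory genes was not tested.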

How the data were processed

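RNA-seq of 6 cochlear explant samples was analysed, 3 control and 3 neomycin. The authors deposited raw counts, whole reads per gene symbol, without normalization. Their processing notes name CASAVA 1.8, Trimmomatic 0.23, HISAT2, HTSeq, DESeq2 and mm10. The strand setting and the treatment of multiply matching reads were not given in the sources used here.

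Counts were scaled by TMM, filtered with filterByExpr and tested with edgeR 4.0.16 (quasi-likelihood test, R 4.3.3), with Benjamini-Hochberg adjustment over all genes tested. A call was an adjusted p under 0.05. The p-values set the group difference against the spread between these samples. Whether the samples came from separate litters was not given, so they cannot be taken as independent litters. Printed CPM are TMM scaled. Standard errors were derived from the log2 fold change and its F statistic (size over root F). Depth was 50471116 to 66068108 counts, and precision here covers counting and sample spread only.

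Exonic length was the exon union of RefSeq-matched GENCODE transcripts (GRCm38) and was found for 15856 genes (99.2%). The length trend (lowess, span 0.3, per sample) was removed through offsets, likewise for GC content. Pseudogene copies needed 95% identity over 200 bases, or over a shorter stretch in short transcripts. Alternatives were other scalings, filters, DESeq2 1.42.0, limma-voom (limma 3.58.1), a replicate block and each sample left out. Isoform ratios used an exact permutation test (scipy 1.17.1). The code was tested on simulated data. Members, lists and alternatives were chosen with earlier results of these data known. Named genes were those past a fold of 1.5, the 3 with the largest called change per complex, core subunits, ATP synthase head and stalk, and isoform pairs. Other genes were named after their values were seen. Figures used matplotlib 3.10.9 in Python 3.11.15. The values of 1 gene are not reported here singly.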

Additional observations from a re-analysis of the deposited data

How the results depend on the processing

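With other scalings (DESeq2 size factors, upper quartile), other filters on low counts, DESeq2's test, limma-voom and GC correction, 54 to 61 subunit genes were higher and 0 were lower, and the medians of the 5 complexes stayed within the spread between samples. Total count scaling shifted all genes to a median of -0.07 and the share of higher calls among all calls from 44.5% to 29.7%. It gave 41 higher genes, 0 past a fold of 1.5, and 0, 3 and 7 higher in complexes II, III and V. Without a filter on low counts 1 gene passed the fold of 1.5. At an adjusted p under 0.01 edgeR called 30 genes higher, with 0, 1, 3 and 4 in complexes II to V.

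Length correction gave 9 higher, 3 lower and 0 past the fold, and the median was -0.0112. In complexes I to V it gave 7, 1, 0, 0 and 1 higher genes, with medians of 0.0743, -0.0313, -0.0648, -0.0649 and 0.0351. With the shortest transcript, an alternative added after seeing the data, there were 10 higher, 1 lower and 0 past the fold, with a median of 0.0355. By complex it gave 8, 1, 0, 0 and 1 higher genes with medians of 0.107, 0.0156, 0.0106, -0.0196 and 0.0279. Under length correction the log2 fold change of 37 of the 83 genes turned from above to below 0, 20 of them called as counted. Among the genes named by rule and called in either fit it turned for Atp5d (-0.0324), Atp5g2 (-0.0535), Atp5g3 (-0.0803), Atp5h (-0.0409), Atp5j (-0.0268), Atp5o (-0.0400), Cox5a (-0.229), Cox6b1 (-0.0372), Cox6b2 (-0.0551), Cox7a2 (-0.0523), Ndufa4 (-0.131), Ndufs7 (-0.116), Sdhb (-0.0477), Uqcr11 (-0.0776) and Uqcrh (-0.054). With the shortest transcript 21 turned, 5 of them called as counted, and by the same restriction Atp5g3 (-0.00888), Cox6b2 (-0.0196), Ndufa4 (-0.0474) and Ndufs7 (-0.044) were among them.

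The replicate numbers were checked for pairing over 15988 genes. Same-numbered samples had correlations of 0.165, 0.0264 and 0.0949, not all above 0.1, and control 2 correlated best with neomycin 3 (0.0325). Each of the other 5 samples correlated best with the sample of its own number, a hint from the data and not from the design, and the numbers were not taken to pair the samples. The fit with the replicate block gave 66 higher genes and 12 in complex IV, and GC correction with the replicate block 67 and 13. Length correction with the replicate block gave 12 higher, 7 lower and 0 past the fold, a median of -0.0111, and in complexes I to V 9, 1, 0, 0 and 2 higher genes with medians of 0.0753, -0.0309, -0.0643, -0.0645 and 0.0359. In that replicate block fit the count that turned was again 37, and of the genes named by rule and called in either fit it turned for Atp5d (-0.0322), Atp5g2 (-0.0538), Atp5g3 (-0.0812), Atp5h (-0.0407), Atp5j (-0.0275), Atp5o (-0.0407), Cox5a (-0.23), Cox6a1 (-0.194), Cox6b1 (-0.0375), Cox6b2 (-0.0551), Cox7a2 (-0.0538), Cox8a (-0.174), Ndufa4 (-0.132), Ndufs7 (-0.115), Sdhb (-0.0474), Sdhd (-0.148), Uqcr11 (-0.0768) and Uqcrh (-0.0537).

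With each sample left out in turn, 29 to 67 genes were higher and 1 to 11 passed the fold, and the median was 0.26 to 0.40. In complexes I to V 21 to 33, 0 to 2, 1 to 5, 3 to 13 and 4 to 14 genes were higher, and the median of complex II was 0.12 to 0.24. The difference in the mean log2 ratio, neomycin minus control, ran from -0.0535 to 0.0186 for Cox7a1/Cox7a2 and from -0.0981 to 0.0496 for Cox6b2/Cox6b1. It ran from -0.00907 to 0.0767 for Atp5g2/Atp5g3 and from -0.37 to 0.932 for Cox8b/Cox8a. Depth limits Ndufs5, at no more than 2.44 CPM, and Cox8b, at no more than 0.407 CPM.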
